A study of Mus musculus with 2 samples.

Results

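The genes described here are 9 protein-coding genes, Samd1, Adk, Cep112, Dand5, Azgp1, Ptprt, Tbc1d9, Fam184a and Mfap4, that were picked because an earlier look at these same libraries had found them high in the cells labelled Setdb1_cKO. They were found by symbol among the 32285 genes of the deposited matrices, and all 9 matched 1 row each in both libraries. Because the choice rests on the contrast reported below, the levels, ratios and counts of these genes are a description and carry no test. Cells came from dissociated dentate gyrus of mice at postnatal day 5. The control library is labelled wild type and the other library is labelled Setdb1_cKO, a conditional knockout of Setdb1. Neither the Cre line, nor the deleted exons, nor the number of animals per library is given in these sources. There was 1 library per group, so every interval below is a 95% interval that covers counting error only, and animal, dissociation and library cannot be told apart from genotype.

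SETDB1 is a histone methyltransferase that places a repressive mark on chromatin, is brought to DNA by zinc finger proteins and their corepressor, and is best known for keeping retroelements and some tissue-restricted genes silent. The dentate gyrus at this age still makes granule neurons: radial glia give rise to intermediate progenitors, these to neuroblasts, and these to granule neurons. The 9 genes have little in common by function. Samd1 encodes a nuclear protein that binds CpG-rich DNA, Adk the kinase that converts adenosine to AMP, and Cep112 a centrosomal protein. Dand5 encodes a secreted Nodal antagonist of the Cerberus and DAN family known from left-right patterning, Azgp1 a secreted glycoprotein with an MHC class I-like fold, and Mfap4 an extracellular microfibril-associated glycoprotein. Ptprt encodes a receptor tyrosine phosphatase, Tbc1d9 a protein with a TBC domain, a domain known from regulators of Rab GTPases, and Fam184a a coiled-coil protein.

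The control library held 10826 kept cells with a median of 5936 UMIs and the Setdb1_cKO library 9378 with a median of 6971. Setdb1 itself had 3115 UMIs over all kept control cells and 1561 in Setdb1_cKO, which is 42.7 against 20.5 UMIs per 1000000 UMIs of the same cells (CPM, the level used throughout), a ratio of 0.479 (0.450 to 0.509). By class, the Setdb1 ratio in radial glia was 0.313, that of astrocytes 0.332, that of intermediate progenitors 0.421, that of neuroblasts 0.529 and that of granule neurons 0.568. Endothelial cells had a Setdb1 ratio of 1.01 (0.715 to 1.42). The sources do not say whether the counted end of the transcript lies in the deleted part. The libraries also differed in sex: Xist, the X-inactivation RNA, had 16 control and 94087 Setdb1_cKO UMIs, and the Y-linked Ddx3y had 4197 and 0, so sex and genotype cannot be told apart in any value below. The 2 barcode lists shared 68 sequences.

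Over the control library as a whole, the label of these genes as ectopic held for Azgp1 and not for most of the others. Azgp1 had 5 UMIs over all control cells. Adk had 4312, Tbc1d9 2102, Cep112 1371, Fam184a 1350, Ptprt 1000, Samd1 827 and Dand5 669 control UMIs. Mfap4 had 10282 control UMIs and was at 410 CPM in control intermediate progenitors and 311 CPM in control fibroblasts. For 8 of the 9 genes the control library as a whole therefore held at least 669 UMIs, against 5 for Azgp1. These sums do not settle presence in each class of control cells, because free RNA can add UMIs to a class. Control granule neurons, for instance, held 2 UMIs of Dand5 and 1 of Ptprt.

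RefSeq promoter windows of GRCm38.p6, from 250 bases before to 50 bases after the start, were found for 7 of the 9 genes, and Samd1 and Mfap4 had no entry. The 5 windows below are shown because they span the range of CpG content among the genes. They are written along the strand of the gene, and capitals mark CCAAT or its reverse complement.

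Azgp1: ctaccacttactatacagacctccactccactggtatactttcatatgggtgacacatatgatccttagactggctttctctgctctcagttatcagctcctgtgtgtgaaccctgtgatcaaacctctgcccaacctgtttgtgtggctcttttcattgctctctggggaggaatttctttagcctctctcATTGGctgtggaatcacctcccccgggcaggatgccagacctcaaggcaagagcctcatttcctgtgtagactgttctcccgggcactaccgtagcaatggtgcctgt
Dand5: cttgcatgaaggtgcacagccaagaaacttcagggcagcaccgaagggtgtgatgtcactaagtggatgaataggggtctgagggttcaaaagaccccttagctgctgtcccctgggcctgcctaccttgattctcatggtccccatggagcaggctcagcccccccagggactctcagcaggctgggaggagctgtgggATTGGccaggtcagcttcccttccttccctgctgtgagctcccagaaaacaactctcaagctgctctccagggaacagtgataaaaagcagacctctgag
Tbc1d9: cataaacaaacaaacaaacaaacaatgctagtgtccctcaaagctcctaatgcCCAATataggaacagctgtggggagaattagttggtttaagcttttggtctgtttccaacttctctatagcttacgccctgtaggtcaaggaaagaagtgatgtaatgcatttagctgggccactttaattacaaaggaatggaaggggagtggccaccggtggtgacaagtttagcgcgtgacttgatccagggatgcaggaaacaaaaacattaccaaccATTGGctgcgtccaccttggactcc
Fam184a: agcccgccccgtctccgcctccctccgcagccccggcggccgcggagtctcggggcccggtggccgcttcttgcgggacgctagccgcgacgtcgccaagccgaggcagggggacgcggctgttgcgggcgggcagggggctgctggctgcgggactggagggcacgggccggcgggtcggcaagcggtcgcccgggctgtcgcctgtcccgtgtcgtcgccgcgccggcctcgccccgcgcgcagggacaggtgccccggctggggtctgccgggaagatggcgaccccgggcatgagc
Ptprt: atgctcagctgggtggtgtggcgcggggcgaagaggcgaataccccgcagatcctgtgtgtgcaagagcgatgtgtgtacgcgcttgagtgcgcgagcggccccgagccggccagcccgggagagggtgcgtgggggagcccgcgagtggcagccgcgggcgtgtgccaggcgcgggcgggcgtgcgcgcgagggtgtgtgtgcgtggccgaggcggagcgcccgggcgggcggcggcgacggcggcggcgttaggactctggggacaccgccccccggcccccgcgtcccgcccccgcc

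The windows are chr5:137981271-137981570 for Azgp1, on the plus strand, chr8:84822774-84823073 for Dand5, on the minus strand, chr8:83165102-83165401 for Tbc1d9, on the plus strand, chr10:53750860-53751159 for Fam184a, on the minus strand, and chr2:162661098-162661397 for Ptprt, on the minus strand. The Dand5 window held 1 CpG, the Azgp1 window 3 and the Tbc1d9 window 5, against a median of 7 over the 32851 windows of the table. The Fam184a window held 45 and the Ptprt window 46, more than in 98.1% and 98.4% of windows. Adk, with 2 windows of 21 and 33 CpGs, and the first window of Cep112, with 24, lay between. CCAAT, searched on both strands, was present in a window of Azgp1, Dand5, Tbc1d9 and Adk and in 37.4% of all windows. TTCCCGC, searched on both strands, was found in the first Cep112 window, 132 bases before the start, and in 4.6% of all windows, and CACGTG was in none of these windows and in 7.15% of all windows. A match is a string of letters and not a site, and no promoter feature searched was shared by all 7 genes.

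Samd1 was higher in the Setdb1_cKO library in nearly every class of cell. It lies on chr8:83997672-84000409 (GRCm38, plus strand), 2738 bases in all. In radial glia 38 control UMIs put its level at 6.45 CPM and 173 Setdb1_cKO UMIs at 25.5 CPM, which is 3.96-fold (2.77 to 5.78) higher. For intermediate progenitors the ratio was 3.32 (2.81 to 3.94), for neuroblasts 3.26 (2.65 to 4.02) and for astrocytes 3.33 (2.61 to 4.28). Of the 14 classes in which Samd1 was measured, meaning at least 30 UMIs over both libraries, 13 had an interval above 1. The exception was microglia, at 14.1 and 20.6 CPM with a ratio of 1.46 (0.785 to 2.84). Samd1 was also 3.71-fold (1.68 to 9.30) higher in fibroblasts and 2.03-fold (1.36 to 3.01) higher in endothelial cells, classes in which the interval of the Setdb1 ratio included 1. Its level in control differed little along the granule lineage, from 6.45 CPM in radial glia to 11.2 CPM in intermediate progenitors, and in Setdb1_cKO it lay between 25.5 and 37.1 CPM there.

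Adk was higher in Setdb1_cKO in all 16 classes in which it was measured, with an interval above 1 in 15 of them, and its ratio was highest in pyramidal or mossy neurons. The exception was GABAergic neurons, at 55.2 and 85.9 CPM with a ratio of 1.55 (0.928 to 2.71). It spans 396 kb on chr14:21052574-21448569 (plus strand), of which exons are 2.15%. Control neuroblasts were at 35.4 CPM and Setdb1_cKO neuroblasts at 213 CPM (ratio 6.01, 5.42 to 6.68). Granule neurons had 57.5 and 372 CPM (ratio 6.48, 5.01 to 8.53), Cajal-Retzius cells 47.5 and 373 CPM (ratio 7.85, 6.63 to 9.35) and pyramidal or mossy neurons 33.4 and 304 CPM (ratio 9.10, 7.52 to 11.1). The pyramidal or mossy class held 174 control and 537 Setdb1_cKO cells. Its marker score was 0.811, against 0.844 for neuroblasts, so its name rests on 2 markers among its leading genes. In control the highest levels were in fibroblasts, at 96.5 CPM, and astrocytes, at 88.7 CPM, whereas in Setdb1_cKO those classes, at 129 and 173 CPM, were below all of the neuronal classes just named. The astrocyte ratio was 1.95 (1.78 to 2.15) and the fibroblast ratio 1.34 (1.08 to 1.67). Microglia had an Adk ratio of 1.91 (1.22 to 3.09) and endothelial cells one of 1.96 (1.53 to 2.51). The interval of the Setdb1 ratio included 1 in both of these classes. The astrocyte ratio of Adk was near theirs and is not read as differing from background. Radial glia were at 75.6 and 263 CPM (ratio 3.48, 3.13 to 3.87). After each cell was thinned to 2000 UMIs, which makes depth equal, 7.02% of 2451 control neuroblasts and 33.7% of 1520 Setdb1_cKO neuroblasts had a UMI of Adk. In microglia, taken here as a gauge of free RNA, the shares were 4.85% and 7.0%, with median depths of 5684 and 6955 UMIs before thinning, so the control neuroblast share lay within the microglial interval of 2.12% to 9.33%.

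**Figure D1:**
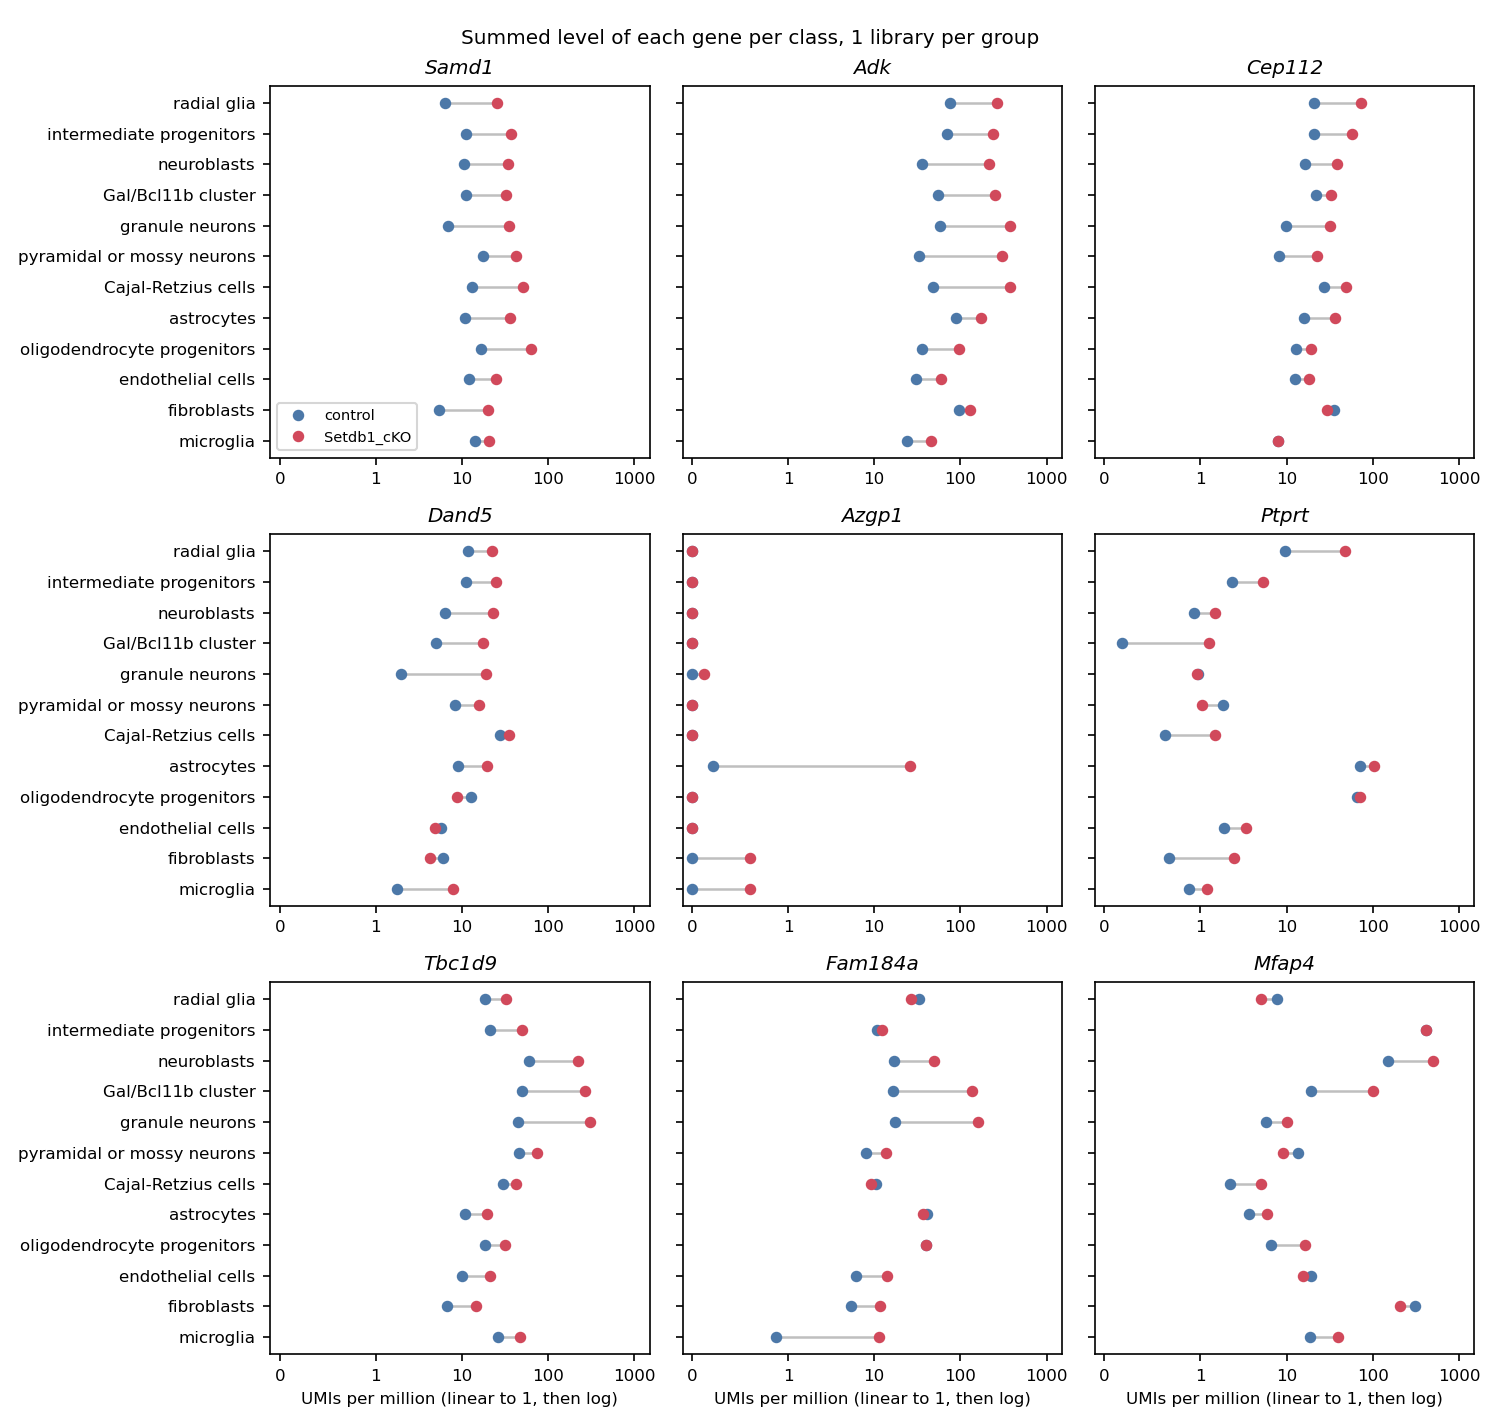
Level of each gene in CPM (horizontal, linear to 1 and logarithmic above) in 12 classes of cells, with 1 point for the control library and 1 for the Setdb1_cKO library and a grey line joining them. Samd1 and Adk are shifted to the right in nearly every class, whereas Fam184a moves from neuroblasts on, Ptprt mainly in radial glia, and Azgp1 in astrocytes.

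Cep112 was higher in Setdb1_cKO all along the lineage, and its level there was highest in radial glia. It spans 435 kb on chr11:108425192-108860615 (plus strand). In control its level was near 21 CPM in radial glia (20.9) and intermediate progenitors (20.8), 16.4 CPM in neuroblasts and 9.74 CPM in granule neurons. In Setdb1_cKO it was 73.4, 56.8, 38.2 and 32.1 CPM in the same order. This is 3.51-fold (2.88 to 4.32) higher for radial glia, 2.72-fold (2.40 to 3.10) for intermediate progenitors and 2.34-fold (1.96 to 2.79) for neuroblasts. Granule neurons had a ratio of 3.30 (1.77 to 6.96) and fibroblasts one of 0.815 (0.540 to 1.23). A sense intronic transcript inside the gene, Cep112it, went with it in radial glia, with 35 UMIs against 127 and a ratio of 3.15 (2.16 to 4.73), and reads of the 2 genes may not be fully separable. The antisense gene Cep112os1 had 43 and 46 UMIs over all kept cells.

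Dand5, a gene of 7.42 kb on the minus strand at chr8:84815405-84822823, was low in both libraries. Control neuroblasts held 81 UMIs, or 6.34 CPM, and Setdb1_cKO neuroblasts 199, or 22.9 CPM, for a ratio of 3.61 (2.78 to 4.74). In granule neurons the 134 control cells gave 2 UMIs and the 917 Setdb1_cKO cells 158, a ratio of 9.80 with a wide interval of 2.67 to 81.6. Radial glia were at 11.9 and 22.4 CPM (ratio 1.89, 1.41 to 2.54), and Cajal-Retzius cells, which had the highest control level at 27.4 CPM, were at 35.2 CPM in Setdb1_cKO (ratio 1.29, 0.969 to 1.72). The 3 steps of the control lineage from radial glia to granule neurons went down from 11.9 to 1.95 CPM, the last from 2 UMIs. In Setdb1_cKO the level stayed between 17.6 and 25.1 CPM in all 5 of these classes, counting the cluster led by Gal and Bcl11b. After thinning, the Setdb1_cKO shares of Dand5 in radial glia and neuroblasts lay within the microglial interval, as given below.

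The Tbc1d9 ratio was higher at each step from radial glia to granule neurons, and several classes outside the lineage had ratios near those of its early steps. The gene covers 108 kb on chr8:83165352-83272934 (plus strand). Control radial glia were at 18.3 CPM and Setdb1_cKO radial glia at 32.9 CPM (ratio 1.80, 1.42 to 2.28), and in intermediate progenitors at 21.2 and 50.2 CPM (ratio 2.37, 2.08 to 2.70). Neuroblasts had 59.4 and 223 CPM (ratio 3.75, 3.45 to 4.09) and granule neurons 44.8 and 304 CPM (ratio 6.78, 5.07 to 9.28). Neurons outside the lineage differed less: Cajal-Retzius cells had a ratio of 1.40 (1.08 to 1.84), pyramidal or mossy neurons one of 1.62 (1.36 to 1.94) and GABAergic neurons one of 1.07 (0.703 to 1.67), and GABAergic neurons had the highest control level of 91.1 CPM. Astrocytes had a ratio of 1.80 (1.36 to 2.37), endothelial cells one of 2.11 (1.37 to 3.25) and fibroblasts one of 2.16 (0.995 to 5.06). The endothelial interval includes the ratio of intermediate progenitors. After thinning, 11.4% of control neuroblasts and 35.2% of Setdb1_cKO neuroblasts had a UMI, and in microglia 1.21% and 8.5% did. Microglia had a Tbc1d9 ratio of 1.79 (1.16 to 2.82), near that of radial glia, so the radial glia ratio is not read as differing from background.

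Fam184a was higher in Setdb1_cKO neuroblasts and granule neurons, and slightly lower in radial glia with an interval close to 1. It lies on the minus strand at chr10:53633145-53751123. Control radial glia were at 33.5 CPM (197 UMIs) and those of Setdb1_cKO at 26.4 CPM (179 UMIs), for a ratio of 0.790 (0.642 to 0.972). Astrocytes were at 40.7 and 36.3 CPM, with 0.891 (0.75 to 1.06). Neuroblasts were at 17 and 48.7 CPM (ratio 2.87, 2.43 to 3.39) and granule neurons at 17.5 and 160 CPM (ratio 9.10, 5.74 to 15.4). In control the gene was thus higher in radial glia and astrocytes than in neurons of the lineage, and in Setdb1_cKO the order was turned round. After thinning, 6.32% (4.92% to 7.97%) of control and 4.62% (3.39% to 6.13%) of Setdb1_cKO radial glia had a Fam184a UMI, intervals that overlap. The median log2 ratio of all genes measured in radial glia was -0.08, and the Fam184a ratio is not adjusted for it. The difference between the radial glia ratio and the granule neuron ratio was not tested. Its relative Fam184b was at 38.7 and 28.9 CPM in radial glia (ratio 0.747, 0.614 to 0.909).

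Mfap4 was higher in Setdb1_cKO neuroblasts, while over all intermediate progenitors its ratio had an interval that includes 1 and the clusters went both ways. The gene is 3470 bases long, at chr11:61485431-61488900 on the plus strand, and overlaps Mapk7 on the opposite strand, which had a ratio of 0.753 (0.710 to 0.799) over all kept cells. Intermediate progenitors of control had 7487 UMIs, or 410 CPM, and those of Setdb1_cKO 4951 UMIs, or 417 CPM, which gives 1.02 (0.981 to 1.05). The cluster led by Tac2 and Eomes had a ratio of 1.18 (1.13 to 1.24), and the other 3 clusters had 0.777 (0.692 to 0.872), 0.888 (0.806 to 0.979) and 0.847 (0.752 to 0.953). Neuroblasts had 148 CPM (1892 UMIs) and 495 CPM (4303 UMIs), a ratio of 3.35 (3.17 to 3.53), and the cluster led by Gal and Bcl11b had 19.2 and 99.6 CPM, a ratio of 5.19 (4.24 to 6.42). In granule neurons the level was 5.85 and 10.0 CPM (6 and 83 UMIs), with an interval of 0.756 to 4.81. By class, control Mfap4 was therefore highest in intermediate progenitors and lower in neuroblasts, and in Setdb1_cKO neuroblasts held the highest level. By cluster this order did not change. The cluster led by Tac2 and Eomes, at 790 and 935 CPM, was above both neuroblast clusters in each library. These were at 214 and 576 CPM (led by Calb2 and Prdm8) and at 92.6 and 335 CPM (led by Cpne9 and Gal). Of the 7 markers of intermediate progenitors, 1 was at least 2-fold higher and 2 at least 2-fold lower in Setdb1_cKO neuroblasts, and their sum went from 788 to 404 CPM, a ratio of 0.512. Both neuroblast clusters showed the difference, with ratios of 2.70 (2.53 to 2.88) and 3.62 (3.27 to 4.01). Fibroblasts, a class in which microfibril proteins are made, went the other way, with 311 and 205 CPM and a ratio of 0.661 (0.573 to 0.763). Under a marker gate applied cell by cell the neuroblast ratio of Mfap4 was 0.875, and it was 1.71 with doublets kept, 1.86 at Leiden resolution 0.5 and 1.81 with the gate on standardised scores, so this result depends on how neuroblasts are drawn.

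In control, Ptprt was highest in astrocytes, oligodendrocyte progenitors and GABAergic neurons, and in Setdb1_cKO it was higher in radial glia. It spans 1139 kb on the minus strand at chr2:161521990-162661147, of which exons are 1.11%. Control astrocytes were at 70.9 CPM (637 UMIs) and control oligodendrocyte progenitors at 64.8 CPM (97 UMIs), and Setdb1_cKO cells of these classes at 103 CPM (612 UMIs) and 71.8 CPM (74 UMIs), with ratios of 1.46 (1.30 to 1.63) and 1.11 (0.807 to 1.51). GABAergic neurons were at 49.7 and 55.0 CPM from 18 and 41 UMIs. The 57 UMIs of control radial glia made 9.68 CPM and the 324 UMIs of Setdb1_cKO radial glia 47.8 CPM, 4.94-fold (3.72 to 6.67) higher. The share of radial glia with a UMI after thinning was 1.44% of 1044 control cells and 9.24% of 974 Setdb1_cKO cells, against 0 of 165 and 0.50% of 200 microglia. Of the 10 astrocyte markers, 3 were at least 2-fold higher in Setdb1_cKO radial glia and their sum went from 6642 to 8215 CPM, and the part of this in the Ptprt result was not tested. The cluster that made up radial glia had a marker score of 1.298 for radial glia and 1.209 for astrocytes, so its name was nearly tied. It held 1058 control and 976 Setdb1_cKO cells. Radial glia were 1453 and 324 cells at Leiden resolution 1.5, 1455 and 284 with doublets kept, and 1099 and 152 under stricter cell filters. With Leiden clustering at resolution 1.5 the Ptprt ratio in radial glia was 2.65 and with doublets kept it was 2.91. A marker gate applied cell by cell gave 1.79, and one on standardised scores gave 2.02. Intermediate progenitors had 42 control and 64 Setdb1_cKO UMIs of Ptprt, at 2.30 and 5.38 CPM, a ratio of 2.34 (1.56 to 3.54). That ratio turned round under the gate on standardised scores. Neuroblasts had 12 control and 13 Setdb1_cKO UMIs of Ptprt and granule neurons 1 and 8, too few to measure.

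Azgp1 was the gene of the set that was near absent from control, and nearly all of its UMIs were in astrocytes. It lies on chr5:137981520-137990233 (plus strand). Astrocytes had 2 UMIs among 1211 control cells and 154 UMIs among 675 Setdb1_cKO cells, or 0.223 and 26.0 CPM, a ratio of 117 with an interval of 31.8 to 973. These 154 were most of the 161 Azgp1 UMIs in Setdb1_cKO. Within astrocytes, 122 came from the 186 Setdb1_cKO cells of the cluster led by Myoc and Gfap, at 73.7 CPM, and that cluster had 0 UMIs in its 127 control cells. The larger astrocyte cluster, led by Slc4a4 and Ednrb, had 2 and 32 UMIs, at 0.255 and 7.51 CPM. Radial glia and neuroblasts of either library had 0 Azgp1 UMIs, and 0 of 974 thinned Setdb1_cKO radial glia allows a share of up to 0.308% of cells with a UMI at that depth (3 counts of the total), which is no limit on cells expressing the gene. The Myoc and Gfap cluster held 127 of the 1211 control astrocytes and 186 of the 675 Setdb1_cKO astrocytes. Of the 6 ependymal markers 4 were measured in astrocytes and 3 of these were at least 2-fold higher in Setdb1_cKO. Their sum went from 71.2 to 153 CPM, with Ccdc153 at 0 in control and Tmem212 at 0 in Setdb1_cKO. The part of either in the Azgp1 result was not tested, and under stricter cell filters the astrocyte ratio was 21.4 from 1 and 26 UMIs.

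**Figure D2:**
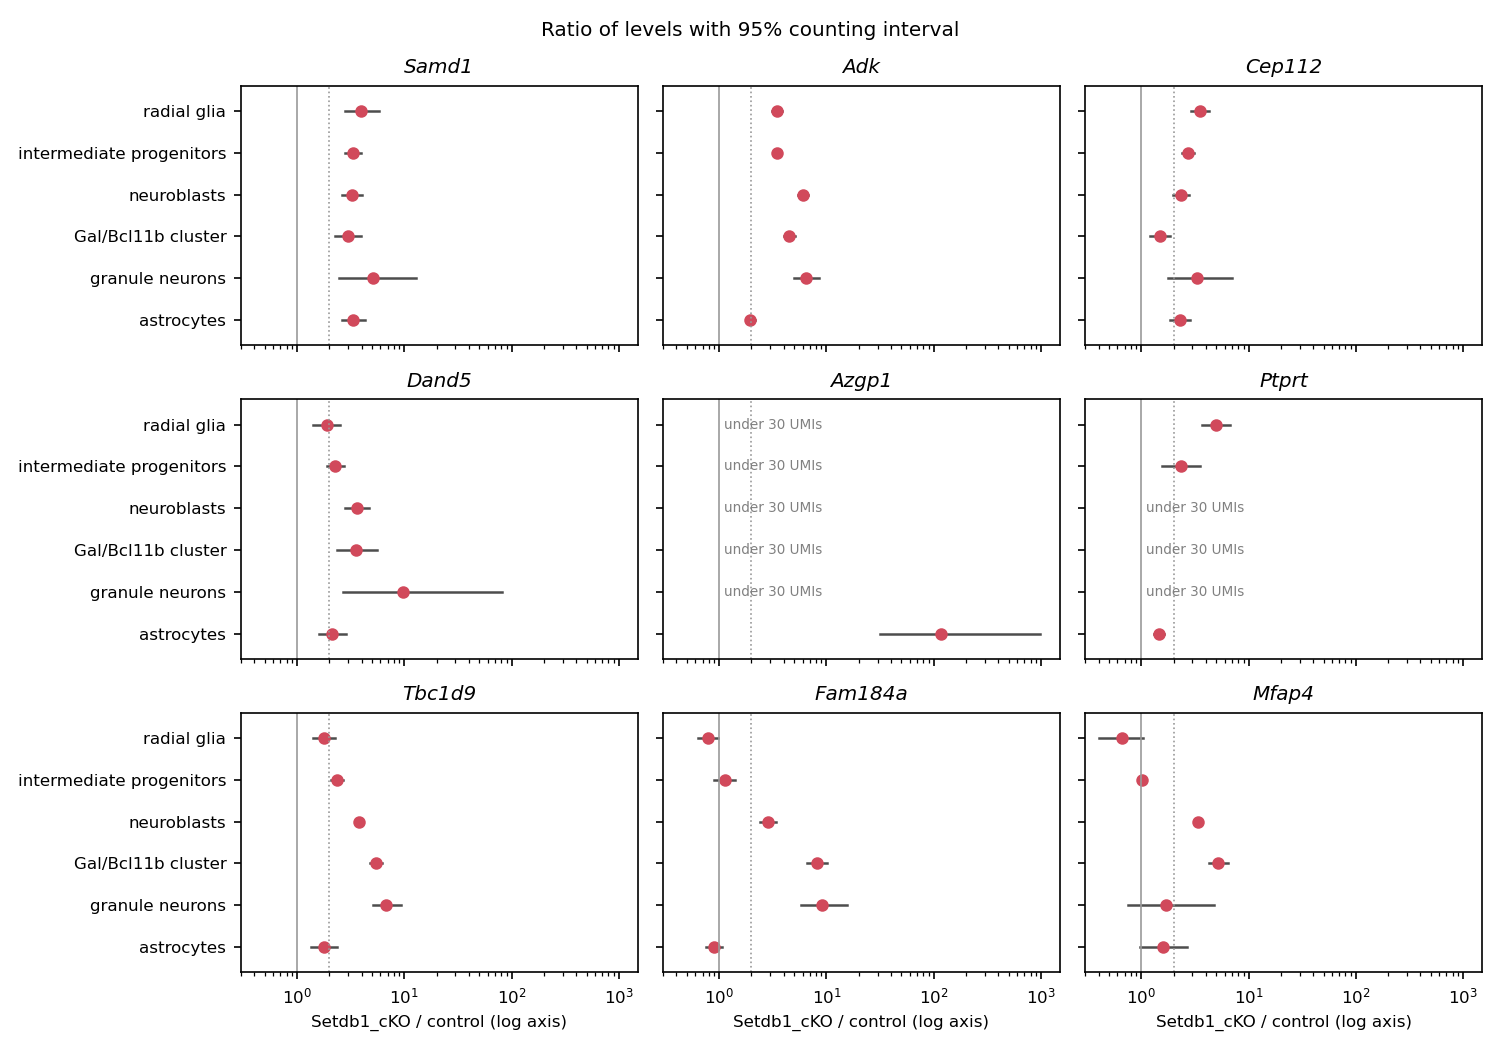
Ratio of the Setdb1_cKO to the control level (horizontal, log axis) for each gene in 6 classes, with the 95% counting interval as a bar, a solid line at 1 and a dotted line at 2. Tbc1d9 and Fam184a move to the right from radial glia to granule neurons, Cep112 is farthest to the right in radial glia, and Azgp1 is measured in astrocytes, where its interval runs from 31.8 to 973.

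Counted by class, 4 of the 8 measured genes were at least 2-fold higher in radial glia of Setdb1_cKO (Samd1, Adk, Cep112 and Ptprt), where 2.53% of all 11914 measured genes were. In intermediate progenitors it was 6 of 8 (1.97% of all genes), in neuroblasts 7 of 7 (2.41%), in the cluster led by Gal and Bcl11b 6 of 7 (2.54%), in granule neurons 6 of 7 (4.13%) and in astrocytes 4 of 9 (2.79%), a count that was 7 with doublets kept. In pyramidal or mossy neurons it was 3 of 7 (3.3%). Since the genes were picked on this contrast, nothing is read from these shares. The median log2 ratio of the measured genes was 1.36 in radial glia, 1.74 in neuroblasts, 2.70 in granule neurons and 0.97 in astrocytes, and that of all measured genes was -0.08, -0.04, -0.05 and -0.02. None of the 9 was at least 2-fold lower in these 7 classes, where 2.21%, 2.12%, 2.31%, 1.18%, 2.12%, 1.3% and 2.65% of all genes were, in the order just given. The granule neuron class held 134 control and 917 Setdb1_cKO cells, and of its own 9 measured markers 2 were at least 2-fold higher and 4 at least 2-fold lower in Setdb1_cKO, and the part of this in the granule neuron ratios was not tested. The cluster led by Gal and Bcl11b, with 907 and 1460 cells, carries neuroblast markers but was left unnamed because a granule neuron marker and no neuroblast marker was among its leading genes. Counting it as neuroblasts left 6 of the 7 genes at least 2-fold higher, with Cep112 at 1.96 and Fam184a at 5.55.

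In thinned radial glia Samd1 was found in 0.766% of control and 5.24% of Setdb1_cKO cells. The shares were 14.2% and 37.2% for Adk and 4.31% and 13.2% for Cep112. For Ptprt they were 1.44% and 9.24%, and for Tbc1d9 3.45% and 6.57%. The Setdb1_cKO interval lay above the control interval for each of these genes. How many of all genes would do so was not computed. The genes were picked on this contrast, so nothing is read from these intervals. In thinned neuroblasts Mfap4 had the highest shares of the 9, 19.7% in control and 52.4% in Setdb1_cKO. Without thinning, the Mfap4 shares were 35.2% and 72.0% of neuroblasts and the Adk shares 32.4% and 68.1% of radial glia. In Setdb1_cKO microglia 8.5% of cells (5.03% to 13.3%) had a Tbc1d9 UMI and 2.0% (0.548% to 5.04%) a Dand5 UMI after thinning. The Setdb1_cKO shares of Tbc1d9 in radial glia (6.57%) and of Dand5 in radial glia (3.90%) and neuroblasts (4.28%) lay within these intervals and are not read as differing from background. Samd1 was found in 4.24% of control microglia (1.72% to 8.55%) and 3.5% of Setdb1_cKO microglia (1.42% to 7.08%). The control radial glia share of Samd1, 0.766% (0.331% to 1.5%), lay below the control microglial interval, so microglia give no gauge of free RNA for Samd1.

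**Figure D3:**
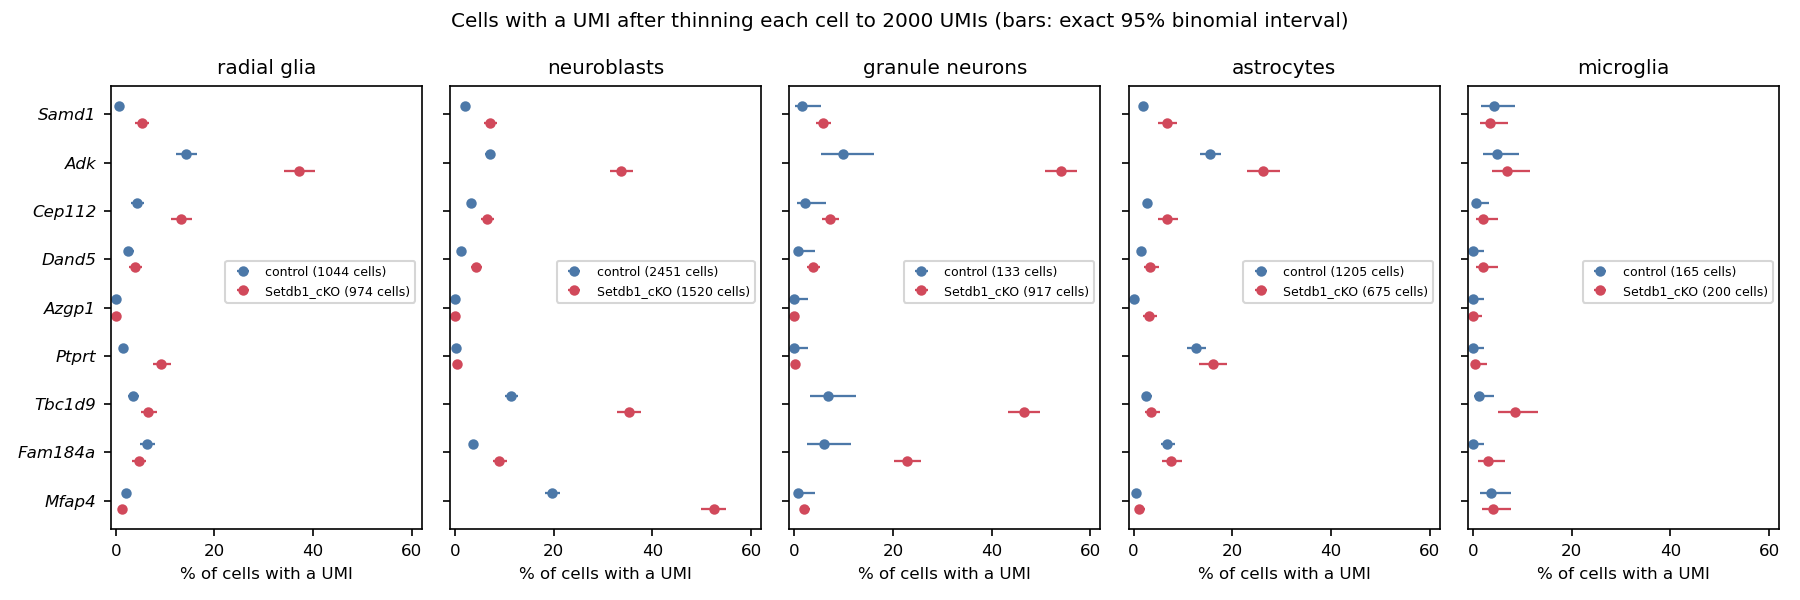
Percentage of cells with at least 1 UMI of each gene after every cell was thinned to 2000 UMIs, in 4 classes and in microglia, for the control and the Setdb1_cKO library, with exact 95% binomial intervals. Adk and Tbc1d9 reach 54.0% and 46.6% of Setdb1_cKO granule neurons, and in microglia no gene exceeds 8.5%.

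More of the genes were found in the same cell in Setdb1_cKO. The genes were picked for being high there, so this goes with the choice and nothing is read from it. After thinning, 0.490% of control neuroblasts and 15.1% of Setdb1_cKO neuroblasts had UMIs of 3 or more of the 9 genes, and the cells with none were 59.0% and 14.6%. In radial glia the cells with 3 or more were 0.383% and 2.77%, in granule neurons 0 of 133 and 12.5% of 917, and in astrocytes 0.581% and 2.07%. Within Setdb1_cKO neuroblasts the genes were spread over the cells with shares near those of all cells for the pairs given next. Adk was found in 33.6% of the 797 cells with Mfap4 and in 33.7% of all 1520 cells, and Tbc1d9 in 34.9% of the cells with Mfap4 and in 35.2% of all. For Tbc1d9 and Fam184a, a pair chosen after its values were seen, Tbc1d9 was found in 41.6% of the 137 cells with Fam184a.

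**Figure D4:**
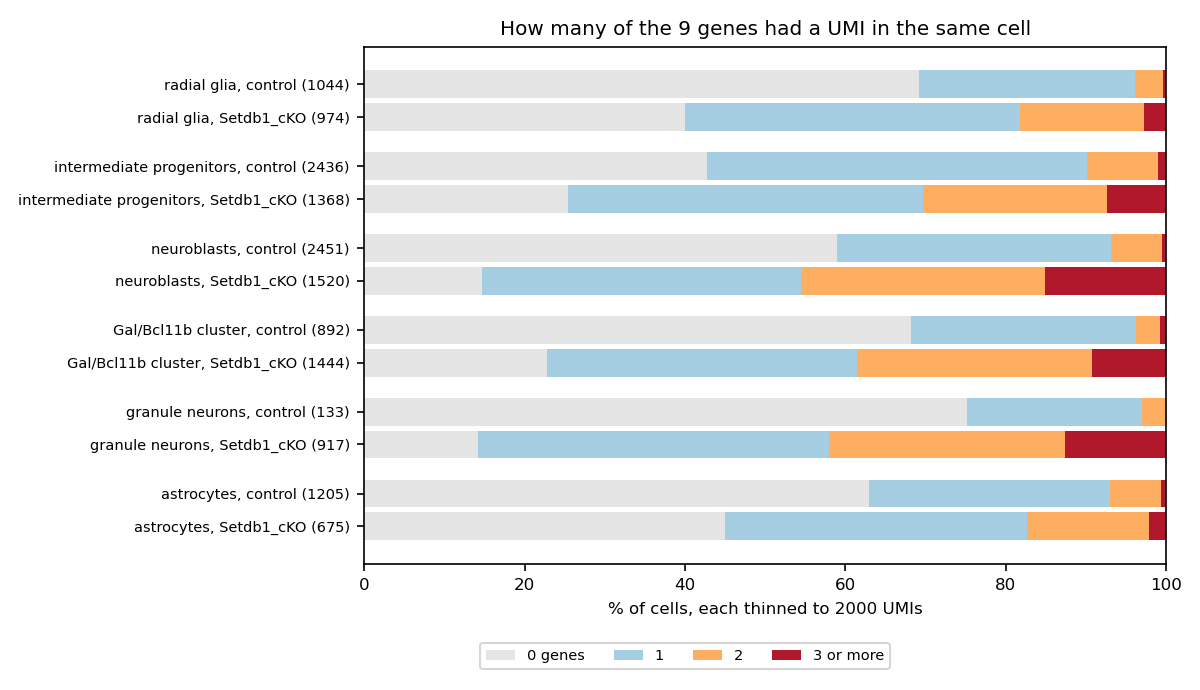
Percentage of cells (horizontal) in which 0, 1, 2 or 3 or more of the 9 genes had a UMI, after thinning to 2000 UMIs, with the number of cells in brackets. The part with 3 or more genes is widest in Setdb1_cKO neuroblasts, at 15.1%, and is 0.490% in control neuroblasts. The genes were picked for being high in Setdb1_cKO.

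Most measured neighbours of the genes were less than 2-fold higher, with exceptions near Cep112 and Azgp1. Tbc1d9, Samd1 and Dand5 lie within 1657 kb of chromosome 8 (chr8:83165352-84822823), which holds 50 genes of the matrices. Over all kept cells 43 of them were measured. The 3 genes of the set, picked for being high in Setdb1_cKO, were at least 2-fold higher. Of the 40 others 0 were, and 5.67% of all 17481 measured genes were. In neuroblasts 1 of 28 others was, Rfx1, with 17 and 30 UMIs, where 2.41% of all measured genes were. It was 1 of 26 others in granule neurons (4.13% of all measured genes) and 1 of 27 in astrocytes (2.79%). It was 0 of 29 in radial glia (2.53%) and 0 of 32 in intermediate progenitors (1.97%). With so few genes, none of these counts is read as differing from the share over all genes. Prkaca, a protein kinase gene that lies 1228 bases from Samd1, had a ratio of 1.06 (1.01 to 1.11), and Ap3m1, which is 65 bases from Adk on the opposite strand, had 0.831 (0.781 to 0.883). Mcm9, 2705 bases from Fam184a, had 0.882 (0.792 to 0.983). Of the protein-coding genes next to the 9, Apoh and Gjc3 were at least 2-fold higher over all kept cells. Apoh, which encodes a plasma glycoprotein, is 10795 bases from Cep112 and had 5 control and 174 Setdb1_cKO UMIs, a ratio of 33.2 (14.0 to 104). Gjc3, a connexin gene, is 18421 bases from Azgp1 and had 99 and 318 UMIs, a ratio of 3.07 (2.44 to 3.89). Within 500 kb of Azgp1, radial glia also had more of Zcwpw1 (41 and 209 UMIs, ratio 4.43, 3.16 to 6.36), Stag3 (7 and 52, ratio 6.46, 2.92 to 16.9) and Gpc2 (30 and 80, ratio 2.32, 1.51 to 3.66), 3 of 29 measured genes in that window, where 2.53% of all genes measured in radial glia were at least 2-fold higher. Genes of these windows are named after their values were seen. Zcwpw1 and Stag3 are known for their roles in meiosis. Within 500 kb of Cep112, 2 of 5 measured genes were at least 2-fold higher in radial glia, Cep112it and Rgs9 (50 and 118 UMIs, ratio 2.05, 1.46 to 2.92). In neuroblasts 2 of 5 were, Apoh and Prkca (515 and 781 UMIs, ratio 2.23, 1.99 to 2.50), and the median log2 ratio in that window was 0.47 in radial glia and 0.42 in neuroblasts. The radial glia count and median include Cep112it, a transcript inside Cep112 whose reads may not be fully separable from those of Cep112. Near Mfap4, 1 of 14 measured genes was at least 2-fold higher in neuroblasts, Kcnj12, with 17 and 24 UMIs. In radial glia 0 of 16 measured genes within 500 kb of Adk, 0 of 3 of Ptprt, 0 of 10 of Tbc1d9 and 0 of 5 of Fam184a were at least 2-fold higher. In neuroblasts it was 0 of 16, 0 of 4, 0 of 12 and 0 of 4 in the same order. With so few genes per window, these counts are not read as differing from the shares over all genes, 2.53% and 2.41%.

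**Figure D5:**
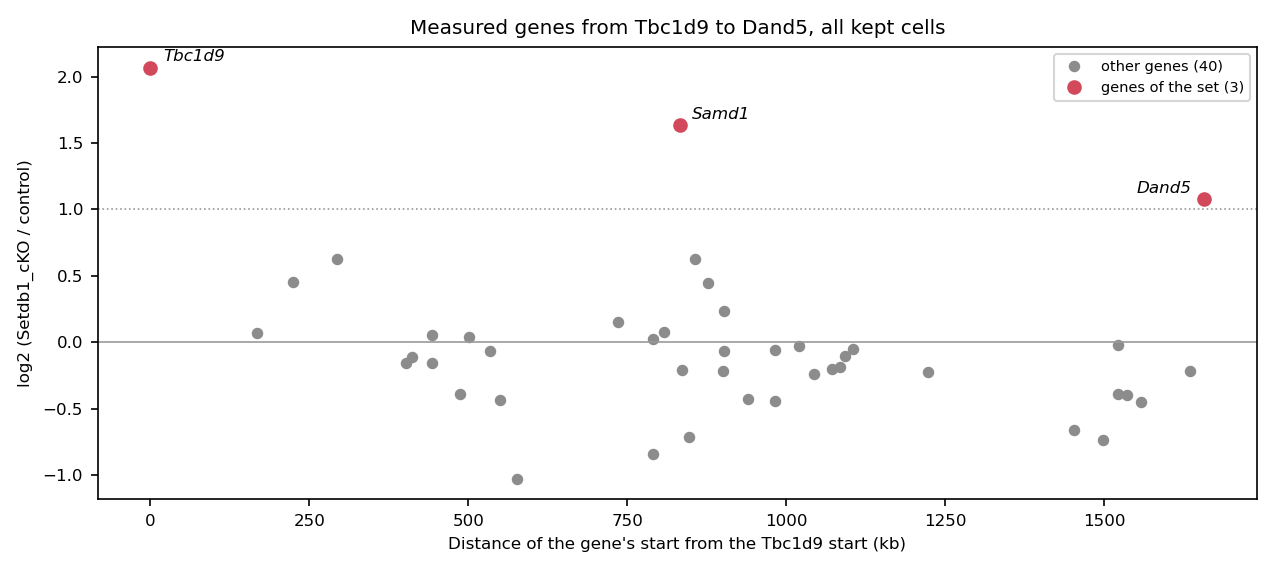
log2 ratio of Setdb1_cKO to control over all kept cells (vertical) for the 43 measured genes between Tbc1d9 and Dand5, by the distance of their start from that of Tbc1d9 in kb (horizontal), with a dotted line at 2-fold. The 3 genes of the set, picked for being high in Setdb1_cKO, lie above the line and the 40 others below it.

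The relatives and partners of the genes, 83 genes in 9 lists, were described in the same classes. In radial glia 56 were measured, 2 were at least 2-fold higher and 0 at least 2-fold lower, where 2.53% and 2.21% of all genes were. These 2 were Adora2b, an adenosine receptor, at 3.74 and 8.12 CPM (ratio 2.17, 1.30 to 3.74), and B2m, the light chain of MHC class I molecules, at 26.7 and 60.7 CPM (ratio 2.28, 1.89 to 2.75). In intermediate progenitors 1 of 65 was higher and 5 were lower (1.97% and 2.12% of all genes). Mfap2, another microfibril gene, was the one that was higher, at 169 and 373 CPM (ratio 2.20, 2.10 to 2.31). The adenosine transporter Slc29a1 was among the lower ones, at 24.9 and 11.6 CPM (ratio 0.466, 0.383 to 0.565). In neuroblasts 1 of 57 was higher, the elastin gene Eln at 4.62 and 9.67 CPM, and 5 were lower (2.41% and 2.31% of all genes). Of these, the Nodal inhibitor Lefty1 was at 6.96 and 2.30 CPM (ratio 0.331, 0.193 to 0.542) and the BMP antagonist Sostdc1 at 9.31 and 2.53 CPM (ratio 0.272, 0.164 to 0.431), while Dand5 of the same list's theme was higher there. Kdm1a, a partner of SAMD1 named for that role, was at 143 and 142 CPM in radial glia.

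Genes whose level followed each of the 9 most closely were found by Pearson's r of log2(CPM + 1) over 36 points, the 18 classes in each library, among 15283 genes. The points share libraries and classes, and r is a description. The closest gene was Wdr83os for Samd1 (r = 0.72), Gm47283 for Adk (0.87), Acad9 for Cep112 (0.91), A230057D06Rik for Dand5 (0.82) and Gm15691 for Azgp1 (0.78). For Ptprt it was Pcdh10 (0.88), for Tbc1d9 Hecw1 (0.79), for Fam184a Adgrb3 (0.88) and for Mfap4 Glt8d2 (0.73). Gm47283 was among the genes left out of clustering as sex-linked. Its match with Adk cannot be told apart from the difference in sex between the libraries. Myoc, a gene that led the cluster with most Azgp1, was second for Azgp1 (0.72), and none of the 9 genes was among the 3 closest of another.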

How the data were processed

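UMI counts per gene and barcode (10x Genomics 3' v3) were used as deposited, as whole-number counts. The authors made them with Cell Ranger 7.1.0, as the header states. The submitters' processing notes list Seurat and mm10 as well. The sources do not give intron handling, cell calling or annotation release. The members and gene lists were chosen with earlier results of these data known. Cells needed 1000 UMIs, 500 genes and at most 10% mitochondrial UMIs, and doublets were removed with Scrublet (scanpy 1.11.5), 588 control and 578 Setdb1_cKO cells. Both libraries were clustered together without the 9 genes, Setdb1 or sex-linked genes (2000 variable genes, 30 components, Leiden resolution 1.0, leidenalg 0.10.2). Clusters were named from markers of 19 cell types. The naming rule was revised after a first clustering had been seen, so 2 versions were run. In the first, leading markers always decided and a cluster without one needed a score of 0.5; in the second, used here, a single leading marker yields to the score and 0.8 is needed. In the clustering used here the revision left 1 more cluster unnamed, with 1 control and 142 Setdb1_cKO cells.

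UMIs were summed per class and library and given per 1000000 UMIs. The ratio has an exact conditional Poisson interval, a sum of 0 was set to 3 counts for the fold rule, and shares have Clopper-Pearson intervals, with 3 counts of the total as the limit for a share of 0. UMIs of PCR-amplified libraries carry counting error only in these intervals. The ratio code was tested on simulated data. Genes named are the 9, Setdb1, their nearest protein-coding neighbours, the 3 most similar genes each, and list members past 2-fold with an interval that excludes 1. Outside this rule, overlapping genes, Fam184b, Kdm1a, markers at 0 and genes within 500 kb past 2-fold were named after their values were seen. Positions are from GENCODE vM21 (GRCm38, the assembly of mm10).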

Additional observations from a re-analysis of the deposited data

Results flagged for a closer look

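Fam184a had a ratio of Setdb1_cKO to control of 9.10 in granule neurons and 0.790 in radial glia, and Mfap4 had a ratio of 5.19 in the cluster led by Gal and Bcl11b and 0.661 in fibroblasts. Each gene was singled out because its classes lay on opposite sides of 1 with intervals that exclude 1. The thinned shares of radial glia with a Fam184a UMI had intervals that overlap between the libraries. With 1 library per group, the difference between classes was not tested.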

How the results depend on the processing

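Of 83 alternative values for the counts of genes, the Setdb1 ratio and the shares, 78 stayed within 1.5 times the reported value or within its interval. In intermediate progenitors a fold of 3 left 2 genes. In astrocytes the count was 7 with doublets kept, with the first naming rule and doublets kept, or with a fold of 1.5, and 2 with a fold of 3. Of 438 alternative ratios of single genes in single classes, 364 stayed within the counting interval, 72 lay outside it and 2 turned round. Of all 438, 35 moved by over 1.5 times and 7 changed side of 1, including ratios whose own interval includes 1. The 2 were Ptprt in intermediate progenitors, at 0.948 from 13 and 6 UMIs under the gate on standardised scores, and Mfap4 in neuroblasts, at 0.875 under the marker gate. The standardised gate, the first naming rule and the merging of the cluster led by Gal and Bcl11b were chosen after seeing the data. The make-up of radial glia also changed with the settings, from 976 Setdb1_cKO cells in the main run to 152 under stricter cell filters. Classes with fewer than 20 cells in a library gave no value: granule neurons under looser or stricter cell filters, the marker gate or each library clustered alone, and intermediate progenitors under the marker gate. The cause was not tested. No paired analysis was possible because each group has 1 library, and for the same reason no replicate could be left out.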
